A study of Saccharomyces cerevisiae with 83 samples.

Results

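Ribosome footprints of Upf1-bound 80S ribosomes were compared with those of all 80S ribosomes in a yeast strain labelled as lacking Upf2. The comparison used 6 of the 83 libraries of the series, which were chosen by their labels: 3 libraries of ribosomes pulled down through the FLAG tag on Upf1 (IP 80S) and 3 of all ribosomes of the same 3 lysates (total 80S), each as footprints of 27 to 32 nt. The strain, HFY467, is W303 with the genotype nmd2::HIS3, upf1::URA3 and carries Upf1-FLAG on the plasmid pRS425-UPF1-FLAG. NMD2 is the gene of Upf2 and NAM7 that of Upf1. All cultures received cycloheximide at 100 µg/ml, which stops elongating ribosomes, and ribosomal RNA was removed with QIAseq FastSelect.

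The other strains used here were the W303 strains upf1::HIS3 with pRS425-UPF1-FLAG, called Upf1-FLAG, and upf1::HIS3 with pRS425-DE572AA-FLAG, called DE572AA-FLAG, whose Upf1 carries the DE572AA substitution in its helicase domain. Each had 3 IP, 3 total and 3 RNA libraries, also with cycloheximide and QIAseq FastSelect. A wild type with the empty plasmid pRS425, called WT-C, served through its 3 RNA libraries. Its 3 total libraries, of 213689 to 714997 counts, entered the shared footprint fit but none of the comparisons. Strains with N-terminal tags served for a side-by-side look. They were upf1::HIS3 with pG1-FLAG-UPF1, nmd2::HIS3 with YEplac112-FLAG-UPF2 and upf3::HIS3 with YEplac195-TPI-FLAG-UPF3, each with 2 lysates, cycloheximide and Ribo-Zero Gold. All tagged proteins were made from plasmids. Recovery by the anti-FLAG resin without a tag was not analysed here.

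Upf1 is an RNA helicase and the central factor of nonsense-mediated decay (NMD), by which cells degrade mRNAs whose translation ends too early. Upf2 bridges Upf1 and Upf3 and stimulates the helicase and ATPase activity of Upf1. Substrates of the pathway in yeast include unspliced pre-mRNAs, mRNAs with upstream open reading frames and mRNAs read through a programmed frameshift. Footprints of pulled-down ribosomes set against those of all ribosomes of a lysate show over which mRNAs the tagged protein was found on ribosomes, an approach known as selective ribosome profiling.

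The 27 to 32 nt columns of the 3 IP libraries held 951417, 549990 and 583252 expected counts, and those of the 3 total libraries held 1931857, 2751746 and 2346501. Levels are given in CPM, counts scaled to the same library total of 27 to 32 nt counts, so that fewer ribosomes on an mRNA and more on all others cannot be told apart. A count of 3 corresponded to 3.15 to 5.45 CPM in IP libraries and to 1.09 to 1.55 CPM in total libraries. Replicates of 1 kind correlated at r = 0.925 to 0.982 over log2(CPM + 1), and IP with total libraries at r = 0.849 to 0.895. No label says that the lysates came from separate cultures, so that p-values measure the spread between lysates.

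The labels were checked against marker transcripts. NMD2 RNA stood at 1164, 1194 and 1164 CPM in the 3 RNA libraries of the upf2Δ-labelled strain, against 237, 206 and 194 CPM in Upf1-FLAG, although the label names a disrupted NMD2. The unspliced NMD2 entry was at 0 counts in each of the 3 upf2Δ-labelled RNA libraries, against 711, 1104 and 460 in Upf1-FLAG. The deposited tables list NAM7 and NMD2 at 0 in all 6 footprint libraries, so their ribosome occupancy was not seen. The α-cell transcripts STE3 (197, 203 and 186 CPM in RNA of the upf2Δ-labelled strain, against 4.91, 1.55 and 1.92 CPM in Upf1-FLAG) and the a-cell transcript STE2 (31.3, 36.0 and 30.4 CPM, against 496, 421 and 401 CPM) differed between the strains as between mating types. NAM7 RNA stood at 12633.6, 14250.5 and 12219.1 CPM, against 23586.9, 23877.9 and 22939.7 CPM in Upf1-FLAG (log2 fold change -0.94, adjusted p = 1.2e-05, edgeR). RNA of LEU2, which marks the plasmid, was also lower (-0.63). The strain is therefore called upf2Δ-labelled below. Its difference in mating-type transcripts cannot be told apart from that in Upf2 wherever it is compared with Upf1-FLAG or DE572AA-FLAG. The same holds for the lower NAM7 and LEU2 RNA in comparisons with Upf1-FLAG.

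RNA levels were compared as background to the footprints. Against Upf1-FLAG, the upf2Δ-labelled strain had 949 RNA entries that were higher (14.1% of 6739 tested) and 590 that were lower (8.76%) by edgeR's quasi-likelihood test at an adjusted p under 0.05. Of 12 known NMD substrates, 7 were higher in RNA and 0 were lower. CPA1, which encodes the small subunit of arginine-specific carbamoyl phosphate synthetase and has an upstream open reading frame, stood at 595, 581 and 563 CPM in the upf2Δ-labelled strain, against 290, 258 and 265 CPM in Upf1-FLAG. When only these 2 groups entered the fit, 946 entries passed (726 higher, 220 lower), in place of 1539.

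Pulled-down and total ribosomes of the upf2Δ-labelled strain differed in the mRNAs they carried. Of 5050 entries tested, 2271 (45%) passed an adjusted p of 0.05 in edgeR's quasi-likelihood test, 1113 higher in IP (22%) and 1158 lower (22.9%). At least 2-fold changes were counted for 310 entries that were higher (6.14%) and for 648 that were lower (12.8%). The 3 IP libraries lay above all 3 total libraries for 1657 entries (32.8%) and below them for 1211 entries (24%). The median log2 fold change was 0.00046, with the 5th percentile at -1.65 and the 95th at 1.11. Calls with the lysate as a block numbered 2288, and leaving out single libraries or lysates gave 1590 to 2055.

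**Figure D1:**
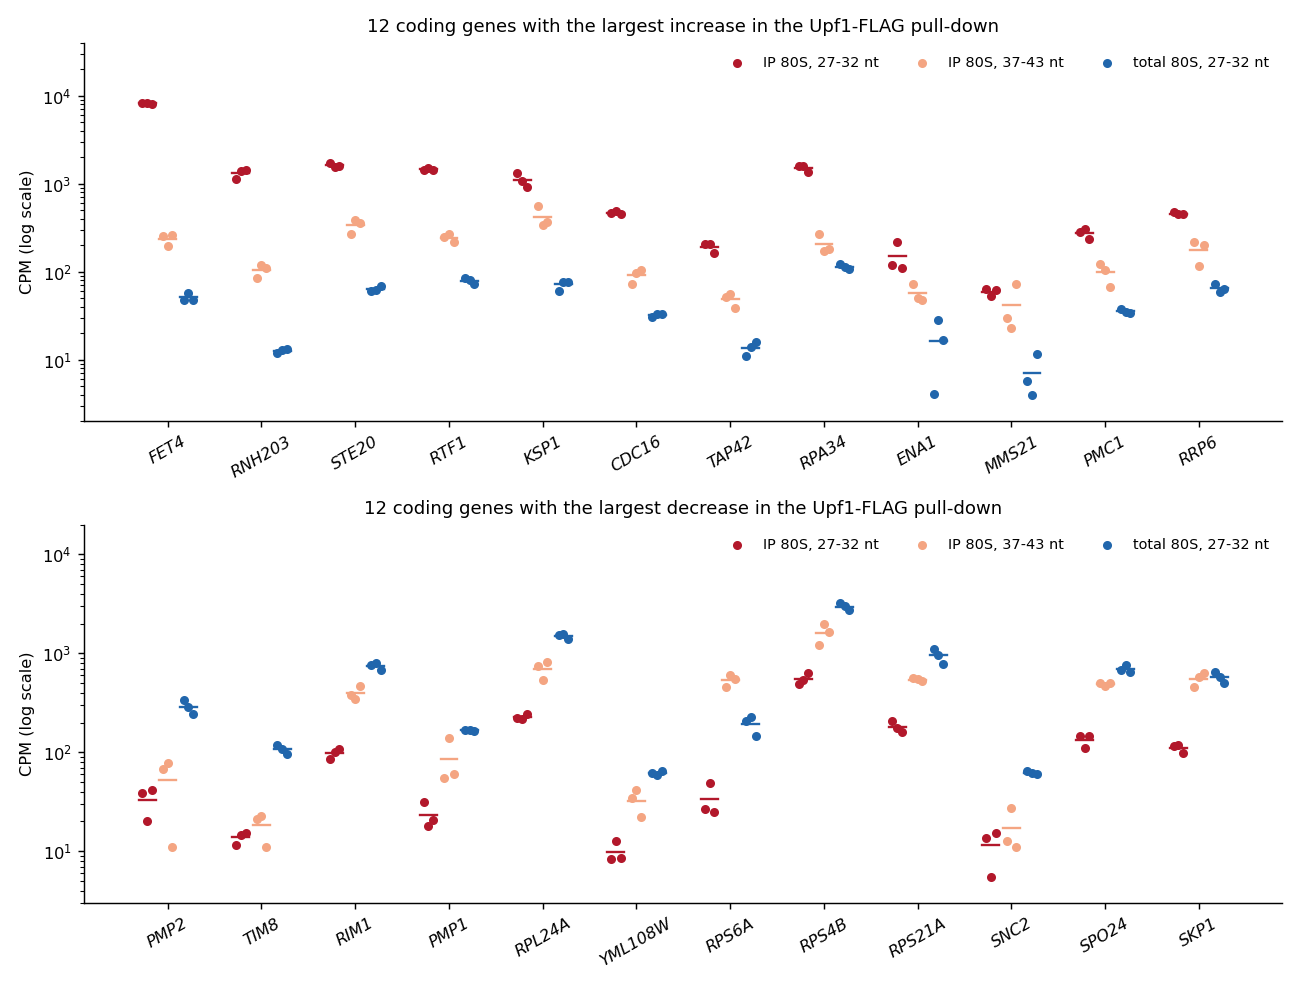
CPM on a log scale of the 12 coding genes with the largest increase (top) and the largest decrease (bottom) in IP over total 80S of the upf2Δ-labelled strain. Points are the 3 lysates and bars their means, for IP footprints of 27-32 nt, IP footprints of 37-43 nt and total footprints of 27-32 nt; the 27-32 nt IP points lie above all total points for the upper 12 genes and below them for the lower 12.

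The largest increase was that of FET4 (YMR319C, chromosome XIII, 912880 to 914538 in R64), which encodes a low-affinity iron transporter of the plasma membrane. FET4 had 8225, 8326 and 8039 CPM in the IP libraries, against 47.1, 57.4 and 48.2 CPM in the total libraries, a log2 fold change of 7.19 ± 0.17 (SE, n = 3; adjusted p = 1.5e-29, edgeR). It alone made up 0.82% ± 0.015 of the counts of IP libraries and 0.0051% ± 0.00057 of those of total libraries (SD, n = 3). The 12 genes with the largest increase together held 1.70%, 1.72% and 1.62% of the IP counts, against 0.055%, 0.0573% and 0.0561% of the total counts.

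RNH203 (YLR154C, chromosome XII, 447982 to 448314), a subunit of RNase H2, came second. RNH203 stood at 1124, 1376 and 1442 CPM in IP and at 11.9, 12.7 and 13.2 CPM in total libraries (log2 fold change 6.55 ± 0.19, adjusted p = 2.8e-26, edgeR). STE20 (YHL007C, chromosome VIII, 95118 to 97937), the p21-activated kinase of the mating pathway, stood at 1696, 1553 and 1600 CPM in IP and at 61.1, 62.1 and 68.2 CPM in total libraries (log2 fold change 4.53 ± 0.13). Neither gene's IP values came near its total values, and the spread among lysates was a small part of the difference.

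RTF1 (YGL244W, chromosome VII, 41498 to 43174), a subunit of the Paf1 complex of transcription elongation, had 1437, 1498 and 1416 CPM in IP, against 84.9, 79.6 and 73.3 CPM in total libraries (log2 fold change 4.06 ± 0.14). KSP1 (YHR082C, chromosome VIII, 268459 to 271548), a serine/threonine kinase, had 1315, 1071 and 905 CPM in IP, against 61.1, 76.7 and 76.7 CPM in total libraries (3.80 ± 0.14). CDC16 (YKL022C, chromosome XI, 394726 to 397248) encodes a subunit of the anaphase-promoting complex. It stood at 461, 485 and 447 CPM in IP, against 30.5, 32.7 and 32.8 CPM in total libraries (3.72 ± 0.15). TAP42 (YMR028W, chromosome XIII, 327482 to 328582) encodes a regulator of type 2A phosphatases in TOR signalling and rose by 3.68 ± 0.21 on the log2 scale. RPA34 (YJL148W, chromosome X, 140437 to 141138), a subunit of RNA polymerase I, had 1586, 1605 and 1353 CPM in IP and 122, 112 and 106 CPM in total libraries (3.61 ± 0.15).

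The other 4 of the 12 had the smallest fold changes among them. PMC1 (YGL006W, chromosome VII, 485921 to 489442), the vacuolar calcium pump, rose by 2.82 ± 0.16 on the log2 scale. RRP6 (YOR001W, chromosome XV, 326832 to 329033), an exonuclease of the nuclear exosome, rose by 2.67 ± 0.15, with 472, 453 and 449 CPM in IP and 73.0, 59.2 and 64.4 CPM in total libraries. MMS21 (YEL019C, chromosome V, 120498 to 121301), a SUMO ligase of the Smc5-Smc6 complex, rose by 2.94 ± 0.32. ENA1 (YDR040C, chromosome IV, 535192 to 538467), a sodium pump, had 118, 220 and 109 CPM in IP and 4.1, 28.2 and 16.7 CPM in total libraries. Its log2 fold change of 2.95 ± 0.80 is uncertain, since ENA1 has near-identical copies among which the authors' counting could split reads.

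Of the spliced entries with no coding gene in the RefSeq table, 3 rose by more than RRP6. That count covers only called entries with a mean of at least 30 CPM and the same side in all 3 lysates. YOR248W stood at 163, 398 and 290 CPM in IP and at 0 in all 3 total libraries, and was at least 217-fold higher in IP against 3 counts per library. With the lysate as a block its adjusted p was 0.051 (edgeR). YOR309C stood at 31.0, 194 and 146 CPM in IP and at 0 in all 3 total libraries, at least 94.5-fold higher, and it lost the call when only the groups compared entered the fit (adjusted p = 0.069, edgeR). YBR206W rose by 3.24 ± 0.73. Fractional counts and exact zeros of this kind depend on how overlapping entries share reads in the authors' estimate.

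The named genes of the upf2Δ-labelled strain were also looked up in pull-downs of N-terminally tagged proteins, which share no library with that strain. FET4 stood at 1866 and 1664 CPM in the FLAG-Upf2 pull-down, against 69.9 and 70.4 CPM in its total libraries, and at 1070 and 1337 CPM in the FLAG-Upf3 pull-down, against 49.9 and 45.0 CPM in its total libraries. In FLAG-Upf1 it stood at 1100 and 2178 CPM in IP and at 144 and 62.6 CPM in total libraries. Both IP libraries lay above both total libraries for 12 of the 12 genes in FLAG-Upf2 (32.2% of the 5050 entries did so), for 10 of the 12 in FLAG-Upf3 (29.7%) and for 10 of the 12 in FLAG-Upf1 (23.4%). Of the 12 genes with the largest decrease, both IP libraries lay below both total libraries for 12 in FLAG-Upf2 (36.1% of all entries), for 11 in FLAG-Upf3 (32.2%) and for 10 in FLAG-Upf1 (20.9%). These pull-downs had 2 lysates each and libraries of 153227 to 767020 counts, and were not tested.

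**Figure D2:**
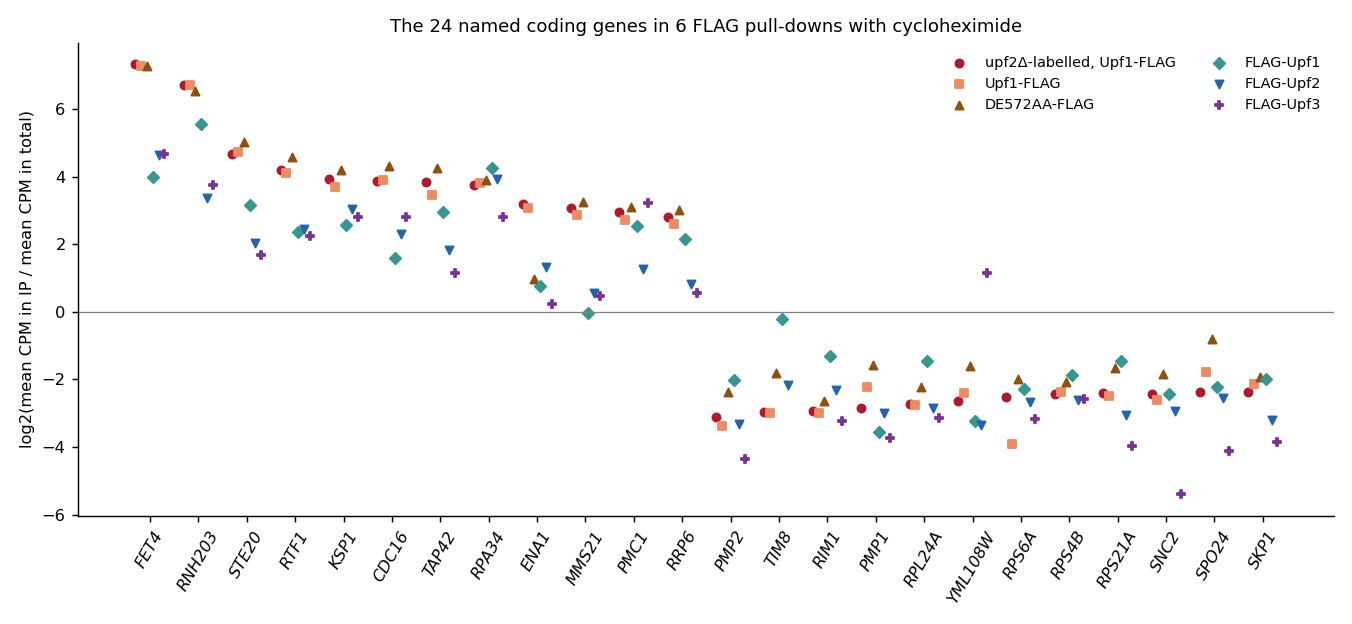
Log2 ratio of the mean CPM in IP to the mean CPM in total 80S for the 24 named coding genes. Pull-downs are those of the upf2Δ-labelled strain, Upf1-FLAG and DE572AA-FLAG (3 lysates each) and, with 2 lysates each, of N-terminally tagged Upf1, Upf2 and Upf3. The 12 genes on the left lie mostly above 0 and the 12 on the right mostly below 0 in all 6 pull-downs; TIM8 has no point for FLAG-Upf3, where it is at 0 in IP.

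Genes of short proteins made up most of the strongest decreases. PMP2 (YEL017C-A, chromosome V, 122798 to 122929) and PMP1 (YCR024C-A, chromosome III, 162945 to 163067) encode small proteolipids of the plasma membrane proton pump. PMP2 had 38.9, 20 and 41.1 CPM in IP, against 336, 290 and 242 CPM in total libraries (log2 fold change -3.22 ± 0.27, adjusted p = 4e-09, edgeR). PMP1 had 31.5, 18.2 and 20.6 CPM in IP, against 170, 168 and 166 CPM in total libraries (-2.90 ± 0.23). TIM8 (YJR135W-A, chromosome X, 676971 to 677234), a chaperone of the mitochondrial intermembrane space, fell by 3.12 ± 0.26 on the log2 scale. RIM1 (YCR028C-A, chromosome III, 172950 to 173440), the mitochondrial single-stranded DNA-binding protein, had 86.2, 100 and 108 CPM in IP, against 758, 793 and 675 CPM in total libraries (-3.08 ± 0.19).

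The others of the 12 lowest were the ribosomal protein genes RPL24A, RPS6A, RPS4B and RPS21A, the vesicle SNARE gene SNC2, the ubiquitin ligase subunit gene SKP1, SPO24 and YML108W. SKP1 (YDR328C, chromosome IV, 1125434 to 1126018) stood at 117, 118 and 99.4 CPM in IP, against 652, 573 and 500 CPM in total libraries (log2 fold change -2.50 ± 0.15, adjusted p = 3e-16, edgeR). SNC2 (YOR327C, chromosome XV, 930734 to 931081) stood at 13.7, 5.45 and 15.4 CPM in IP, against 64.7, 61.8 and 60.1 CPM in total libraries (-2.51 ± 0.33). IP values of SNC2 rest on few counts, and its SE is among the widest of the 12.

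Coding length went with the direction of change, where 22% of all entries were higher in IP and 22.9% lower. Among 108 entries under 300 nt, 4 were higher in IP and 64 lower, with a median log2 fold change of -1.21. The medians were -0.78 for 497 entries from 300 nt to under 600 nt, -0.14 for 1461 entries from there to under 1200 nt, 0.20 for 1830 entries from there to under 2400 nt and 0.31 for 797 entries of 2400 nt and over. In the longest class 315 entries were higher and 74 lower. Across 4693 entries with a length Spearman's rho of log2 fold change with length was 0.39, and 0.39 over the 4657 entries without cytosolic ribosomal proteins, as a description over entries that share the 6 libraries. Over the 2627 entries of 1200 nt and over it was 0.14.

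**Figure D3:**
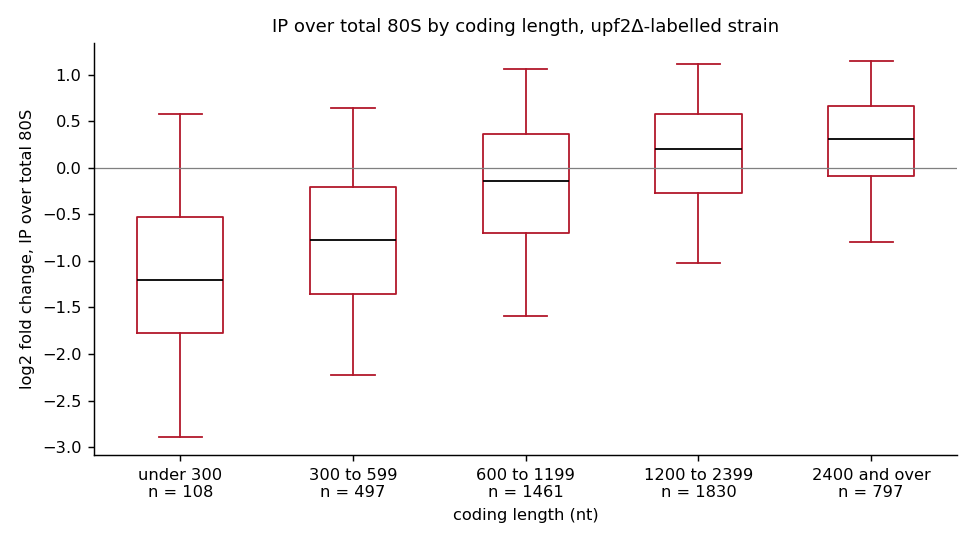
Log2 fold change of IP over total 80S by class of coding length in nt, for spliced coding entries with a length. Boxes span the quartiles with the median as a line and whiskers reach the 5th and 95th percentiles; the medians run from -1.21 in the shortest class to 0.31 in the longest.

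As shares of a library, entries under 600 nt took 5.14%, 4.73% and 5.62% of the IP counts, against 9.54%, 9.28% and 9.28% of the total counts. Entries of 2400 nt and over took 19.6%, 19.6% and 18.3% of the IP counts, against 14.3%, 14.4% and 15.1% of the total counts. IP and total values did not overlap in either case, and the exact two-sided permutation test gave p = 0.1, the smallest that 3 against 3 libraries allow. Among the longest genes at 30 CPM or more, REA1, which encodes the AAA protein midasin of ribosome assembly, stood at 899, 993 and 833 CPM in IP and at 437, 477 and 470 CPM in total libraries (log2 fold change 0.84 ± 0.11). DYN1, the dynein heavy chain, and TRA1, a subunit of the SAGA and NuA4 complexes, rose by 0.91 ± 0.17 and by 0.84 ± 0.12. Of the shortest, YOR302W, the upstream open reading frame of CPA1, stood at 67.1, 79.6 and 105 CPM in IP, against 200, 244 and 212 CPM in total libraries (-1.55 ± 0.18, adjusted p = 3.8e-09, edgeR). RPL41A, which encodes a ribosomal protein, also has a coding length of 78 nt and went the other way, with 175, 162 and 280 CPM in IP and 32.3, 65.2 and 61.1 CPM in total libraries (1.80 ± 0.39). Its near-identical copy RPL41B did not pass the test (0.59 ± 0.27, adjusted p = 0.082, edgeR), though it did with the lysate as a block, so the split between the copies is uncertain.

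Most genes of cytosolic ribosomal proteins fell, where 22.9% of all entries were lower and 22% higher. Of 81 genes of the 60S subunit, 65 were lower in IP and 3 higher, with a median log2 fold change of -1.24. Of 57 genes of the 40S subunit, 49 were lower and 1 higher, with a median of -1.14. Together they took 10.1%, 9.94% and 11.8% of the IP counts, against 20.2%, 20.6% and 18.8% of the total counts (exact permutation test, p = 0.1, the smallest possible). RPL24A (YGL031C) stood at 221, 216 and 246 CPM in IP, against 1519, 1563 and 1395 CPM in total libraries (-2.85 ± 0.22), and RPL27A fell by 2.42 ± 0.22. RPS4B (YHR203C) stood at 492, 540 and 629 CPM in IP, against 3210, 2979 and 2718 CPM in total libraries (-2.56 ± 0.14).

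Ribosomal protein genes mostly come in pairs of near-identical copies, and values of a single copy are uncertain. RPS6A, with 26.6, 48.9 and 24.9 CPM in IP and 205, 227 and 146 CPM in total libraries, has an SE of 0.63 on the log2 scale. RPL18B rose by 0.84 ± 0.25 and RPS0B by 0.37 ± 0.13, and both calls were lost without lysate 2 or lysate 3 (adjusted p up to 0.16 for RPL18B and 0.28 for RPS0B, edgeR).

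Other lists of short proteins held more lower than higher calls, where 22.9% of all entries were lower and 22% higher. Of 11 histone genes, 9 were lower and 0 higher (median -1.29). HTB1, a histone H2B gene, stood at 56.5, 43.2 and 61.3 CPM in IP, against 245, 227 and 266 CPM in total libraries (-2.31 ± 0.17), and HHF2, a histone H4 gene, fell by 2.07 ± 0.15. Of 42 genes of oxidative phosphorylation, 21 were lower, 6 higher and 15 not called (median -0.65). The share of counts of all 43 listed genes, 0.563%, 0.493% and 0.55% in IP and 0.602%, 0.523% and 0.598% in total libraries, overlapped between the groups (exact two-sided permutation test, p = 0.3). ATP16, the delta subunit of the ATP synthase, had 46.2, 38.2 and 39.4 CPM in IP, against 181, 176 and 173 CPM in total libraries (-2.21 ± 0.19). QCR6, a short subunit of the cytochrome bc1 complex, had 169, 182 and 185 CPM in IP, against 68.3, 54.1 and 62.6 CPM in total libraries (1.40 ± 0.17), and thus did not follow the length classes. Of 71 mitochondrial ribosomal proteins, 28 were lower, 3 higher and 40 not called (median -0.68). MRPS17 fell by 2.02 ± 0.28 and MHR1 rose by 1.11 ± 0.24. The median coding length was 399 nt for the histone genes, 445.5 nt for those of oxidative phosphorylation with a length and 670.5 nt for those of mitochondrial ribosomal proteins, and the part of length in these counts was not tested.

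The translation machinery was divided, and the counts of this and the following lists stand beside 22% higher and 22.9% lower among all entries. Of 32 initiation factor genes, 14 were lower and 8 higher (median -0.29). SUI1, which encodes eIF1, had 98.8, 105 and 129 CPM in IP, against 346, 377 and 367 CPM in total libraries (-1.86 ± 0.14), while TIF35, a subunit of eIF3, rose by 0.76 ± 0.12. GCN1, an activator of the kinase Gcn2, rose by 0.74 ± 0.11. Of 16 genes of elongation and termination, 10 were lower and 2 higher (median -0.45). HYP2, which encodes eIF5A, stood at 1337, 1354 and 1579 CPM in IP, against 3884, 3965 and 3780 CPM in total libraries (-1.58 ± 0.12). The release factor gene SUP35 (eRF3) rose by 0.39 ± 0.11, a call lost without lysate 1 (adjusted p = 0.097, edgeR). Of 19 aminoacyl-tRNA synthetases, 11 were higher and 5 lower (median 0.33), with FRS1, the beta subunit of phenylalanyl-tRNA synthetase, at 826, 805 and 823 CPM in IP and 319, 355 and 389 CPM in total libraries (1.07 ± 0.11). THS1, the threonyl-tRNA synthetase, fell by 0.55 ± 0.11.

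Genes of mRNA decay moved in both directions. Of 37, 13 were lower and 8 higher (median -0.33), against 22.9% lower and 22% higher among all entries. DCP2, the decapping enzyme and a binding partner of Upf1, had 187, 169 and 130 CPM in IP, against 45.0, 39.2 and 50.3 CPM in total libraries (log2 fold change 1.73 ± 0.16, adjusted p = 3e-11, edgeR), and EDC3, an enhancer of decapping, rose by 1.10 ± 0.16. LSM1, of the Lsm ring that binds mRNA 3′ ends, had 53.6, 54.5 and 49.7 CPM in IP, against 268, 206 and 192 CPM in total libraries (-2.21 ± 0.19). CDC36, a subunit of the Ccr4-Not complex, fell by 1.95 ± 0.25.

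Lists of metabolism and transport held more higher than lower calls, where 22% of all entries were higher and 22.9% lower. Of 66 genes of amino acid synthesis, 28 were higher and 7 lower (median 0.29). HOM6, homoserine dehydrogenase, stood at 575, 729 and 626 CPM in IP, against 260, 258 and 289 CPM in total libraries (1.12 ± 0.12), and LYS9, saccharopine dehydrogenase, fell by 1.07 ± 0.13. Of 39 genes of plasma membrane transport, 16 were higher and 3 lower (median 0.38), with FET4 and ENA1 at the top. The copper transporter gene CTR1 fell by 0.76 ± 0.20. Of 24 genes of glycolysis and fermentation, 10 were higher and 5 lower (median 0.25). PYC2, a pyruvate carboxylase, stood at 1252, 1590 and 1291 CPM in IP, against 530, 544 and 636 CPM in total libraries (1.14 ± 0.12), and TPI1, triose phosphate isomerase, stood at 2450, 2355 and 2577 CPM in IP, against 4258, 4323 and 4310 CPM in total libraries (-0.94 ± 0.11).

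Of 42 cytoskeleton and motor genes, 17 were higher and 7 lower (median 0.21), again beside 22% higher and 22.9% lower among all entries. TUB3, an alpha-tubulin gene with a close paralog, rose by 1.22 ± 0.12, and COF1, cofilin, fell by 1.41 ± 0.15. Of 34 proteasome genes, 12 were higher and 5 lower (median 0.064), with the alpha subunit SCL1 up by 1.11 ± 0.13 and RPN13 down, at 29.4, 9.09 and 15.4 CPM in IP against 54.4, 63.96 and 57.5 CPM in total libraries (-1.72 ± 0.29). Of 23 genes of ergosterol synthesis, 5 were higher and 6 lower (median 0.098), which is near the shares over all entries. ERG7, lanosterol synthase, rose by 0.66 ± 0.13, and ERG1, squalene epoxidase, fell by 0.98 ± 0.11. Of 59 genes of ribosome biogenesis, 19 were higher and 23 lower (median -0.051), with the GTPase gene NOG1 at 572, 596 and 525 CPM in IP against 198, 198 and 202 CPM in total libraries (1.37 ± 0.11).

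Lists of secretion, the cell wall and chaperones held more lower than higher calls, where 22.9% of all entries were lower and 22% higher. The share of higher calls was near that of all entries for secretion and chaperones. Of 43 genes of translocation into the endoplasmic reticulum and of secretion, 18 were lower and 10 higher (median -0.31). OST5, a short subunit of the oligosaccharyltransferase, stood at 96.7, 63.6 and 84.0 CPM in IP, against 404, 487 and 379 CPM in total libraries (-2.49 ± 0.19), and ERP1, a p24 cargo receptor, rose by 1.11 ± 0.16. Of 25 cell wall genes, 11 were lower and 2 higher (median -0.35). CWP2, a short mannoprotein, had 904, 856 and 821 CPM in IP, against 4277, 3904 and 3255 CPM in total libraries (-2.29 ± 0.20). Of 26 chaperone genes, 12 were lower and 5 higher (median -0.18). SSB1, an Hsp70 that sits on ribosomes, had 6971, 8970 and 7968 CPM in IP, against 3602, 3891 and 3831 CPM in total libraries (0.94 ± 0.11, with a near-identical copy), and CPR6, a cyclophilin, fell by 1.95 ± 0.14.

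**Figure D4:**
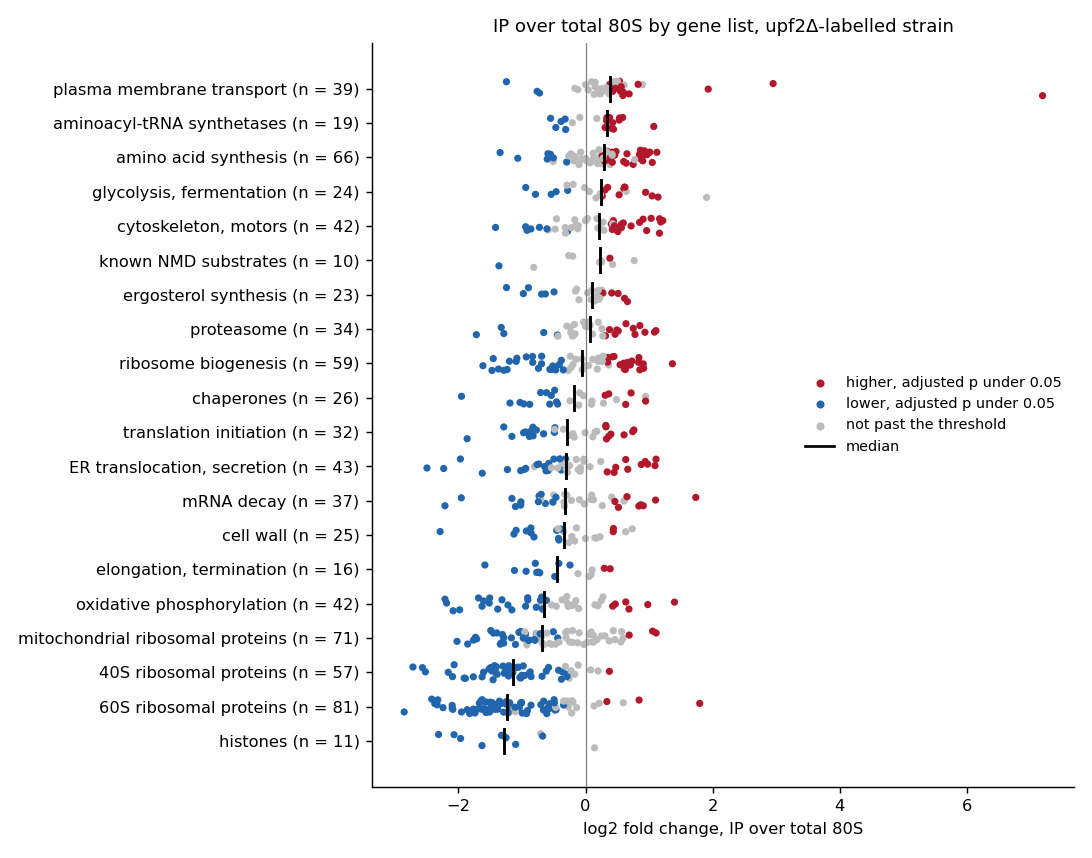
Log2 fold change of IP over total 80S in the upf2Δ-labelled strain for the tested genes of 20 lists, with list medians as black lines. Red and blue points passed an adjusted p of 0.05 as higher and lower, and grey points did not; medians lie between 0.38 for plasma membrane transport and -1.29 for histones, and FET4 is the point at 7.19.

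Of 12 known NMD substrates, 10 could be tested in the pull-down, of which 1 was higher, 1 lower and 8 did not pass. Among all entries 45% passed, 22% higher and 22.9% lower. CPA1 had 598, 562 and 564 CPM in IP, against 368, 396 and 441 CPM in total libraries (log2 fold change 0.38 ± 0.15, adjusted p = 0.038, edgeR). TEN1, a subunit of the telomere-capping CST complex, had 4.204, 3.64 and 8.57 CPM in IP, against 12.9, 11.6 and 13.2 CPM in total libraries (-1.36 ± 0.53, adjusted p = 0.036, edgeR), from 11 counts in IP in all. The call of CPA1 was lost with DESeq2 and without any 1 lysate or library of the strain (adjusted p up to 0.21). That of TEN1 was lost without lysate 1 or lysate 2, without most single libraries and with the lysate as a block (adjusted p up to 0.23). For the others the log2 fold changes were -0.26 for the magnesium transporter gene ALR1, -0.20 for the telomerase subunit gene EST1, 0.25 for PPR1, 0.25 for SPT10, 0.22 for CTF13, 0.77 for STN1, 0.43 for UBP7 and -0.81 for EST3. EST2 and REV7, with 9 and 7 counts in IP, were not tested.

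A larger set was drawn from other libraries, the 592 spliced entries whose RNA was called at least 2-fold higher in DE572AA-FLAG than in WT-C (622 of 6739 entries with unspliced ones counted, 9.23%). In RNA of the upf2Δ-labelled strain against Upf1-FLAG, 381 of these 592 were higher and 5 lower, with a median log2 fold change of 0.62. Among all 6739 RNA entries tested, 14.1% were higher and 8.76% lower in that comparison. In footprints of the upf2Δ-labelled strain 209 of the 592 passed the filter on low counts, of which 27 were higher in IP and 28 lower, with a median of 0.023. Of the 4762 other spliced entries tested, 1081 were higher and 1110 lower, with a median of 0.0072. The set was of lower level, with a median of 15.2 CPM against 44.6 CPM, and the part of level in these counts was not tested.

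Unspliced entries took less of the pulled-down footprints. The 296 unspliced entries with a spliced partner held 0.0388%, 0.0391% and 0.0339% of the IP counts, against 0.113%, 0.129% and 0.126% of the total counts (exact permutation test, p = 0.1, the smallest possible). Of the 50 that could be tested, 12 were lower in IP, near the 22.9% lower among all entries, and 1 was higher. Their median of -2.09 rests on fitted values of entries that are often at 0 in IP. Unspliced RPL36A had 12.3, 5.85 and 0 CPM in IP, against 85.8, 86.9 and 113 CPM in total libraries (-3.86 ± 0.65). SAR1 unspliced was at 0 in all 3 IP libraries and at 35.7, 34.2 and 34.8 CPM in total libraries, at least 7.62-fold lower in IP against 3 counts per library, though its call was lost with the lysate as a block (adjusted p = 0.12, edgeR) and without any 1 lysate. The exception was unspliced RPL28, a classical NMD substrate under its older name CYH2, with 14.2, 18.0 and 3.43 CPM in IP and 1.91, 2.72 and 3.17 CPM in total libraries (2.04 ± 0.59, adjusted p = 0.0049, edgeR). Without lysate 1 or lysate 2 its call was lost (adjusted p up to 0.080, edgeR). An unspliced entry shares its exons with the spliced one, so that the counts rest on how the authors' estimate divides reads.

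Genes read through a programmed frameshift and Ty elements are listed only as unspliced entries. OAZ1, the ornithine decarboxylase antizyme, fell by 1.58 ± 0.40 with 11.6, 9.09 and 1.71 CPM in IP and 22.3, 22.2 and 21.3 CPM in total libraries (adjusted p = 0.0013, edgeR). ABP140, a tRNA methyltransferase with an actin-binding region, had 94.6, 78.2 and 82.3 CPM in IP and 83.3, 80.3 and 89.9 CPM in total libraries and did not pass the test (-0.11 ± 0.18). Of 13 entries of this kind that were tested, 2 were lower and 1 higher, neither above the shares of all entries (22.9% lower, 22% higher). The multicopy entries YBL005W-B (-1.92 ± 0.47) and YIL082W-A (1.46 ± 0.38) are uncertain, since reads of repeats could be assigned to any copy. The first call was lost when only the groups compared entered the fit (adjusted p up to 0.072, edgeR), and the second without lysate 2 (adjusted p = 0.082, edgeR).

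The marker genes of the strain itself behaved unequally. URA3, which marks the upf1 disruption by the label, had 135, 144 and 127 CPM in IP, against 57.5, 53.8 and 59.2 CPM in total libraries (log2 fold change 1.11 ± 0.16, adjusted p = 7.2e-07, edgeR). URA3 RNA stood at 77.9, 76.1 and 96.1 CPM, against 66.6, 89.0 and 91.1 CPM in Upf1-FLAG, which is labelled upf1::HIS3 (adjusted p = 0.69, edgeR). The URA3 reads therefore cannot be credited to the disruption marker. HIS3, which marks the nmd2 disruption, had 185, 189 and 204 CPM in IP and 171, 166 and 175 CPM in total libraries (0.03 ± 0.13). LEU2, which marks the plasmid, had 284, 244 and 219 CPM in IP and 250, 325 and 260 CPM in total libraries (-0.29 ± 0.14), and did not pass the test, though it did with the lysate as a block. Of 5 genes specific to a cells and 4 specific to α cells that were tested, 0 passed in either direction, where 45% of all entries passed. Those of a cells had too few counts for the test to decide. MFA2 had 0 counts in IP and 0 in total libraries, ASG7 4 and 2, STE2 5 and 4, BAR1 12 and 24, and STE6 18 and 60. The α-cell genes had 128 to 847 counts in IP.

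The same IP libraries also have footprints of 37 to 43 nt, with 234212, 217584 and 180753 expected counts, or 19.8%, 28.3% and 23.7% of both length classes together. For 11 of the 12 genes with the largest increase, all 37 to 43 nt values lay below all 27 to 32 nt values of the pull-down, and for 12 of 12 they lay above the 27 to 32 nt values of total ribosomes. FET4 stood at 252, 198 and 260 CPM among the longer footprints, against 8225, 8326 and 8039 CPM among the shorter ones of the same pull-downs. For 9 of the 12 genes with the largest decrease the longer footprints lay above the shorter ones. Both sets of genes were chosen by their extreme 27 to 32 nt values in the pull-down, which favours such an order. The shares of all entries that did so were not counted. Cytosolic ribosomal protein genes took 15.9%, 18.0% and 17.8% of the longer footprints, against 10.1%, 9.94% and 11.8% of the shorter ones. Glycolysis and fermentation genes took 9.80%, 9.99% and 10.3% of the longer footprints of the pull-down, 18.8%, 19.95% and 19.1% of its shorter ones and 16.8%, 16.8% and 16.3% of the total counts. Their share thus lay above total ribosomes in the shorter class and below them in the longer one. The same held for plasma membrane transport, with means of 0.979% ± 0.023 of the longer and 3.56% ± 0.13 of the shorter footprints of the pull-down and 1.98% ± 0.043 of the total counts (SD, n = 3 each), and for amino acid synthesis. Histone genes went the other way, with 0.227% ± 0.018 of the longer and 0.0783% ± 0.013 of the shorter footprints of the pull-down and 0.210% ± 0.0024 of the total counts. Longer footprints of total ribosomes from these lysates were not analysed here, so that they are compared only with the 27 to 32 nt total libraries.

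Whether the labelled absence of Upf2 changes what Upf1-bound ribosomes carry was tested as the difference of IP over total between strains. Against Upf1-FLAG, 0 of 5050 entries (0%) passed an adjusted p of 0.05 in edgeR's quasi-likelihood test, and 168 (3.33%) had an unadjusted p under 0.05. DESeq2 also called 0, and so did the fit with the lysate as a block. This does not show that the strains are alike. The 95% interval of the difference stayed within 1 log2 unit in both directions for 2725 of the 5050 entries, and for 2563 of the 3117 entries with a mean of at least 30 CPM, and the median half-width was 0.70 and 0.54 log2 units in these sets. Of the 1113 entries higher in IP in the upf2Δ-labelled strain, 893 (80.2%) were also higher in Upf1-FLAG, where they made up 80.8% of 1105. Of the 1158 that were lower, 926 (80.0%) were also lower there, again 80.0% of 1158. Across the 3117 entries the log2 fold changes of the 2 strains had a Pearson's r of 0.95, as a description over genes of strains that share the protocol but no library.

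**Figure D5:**
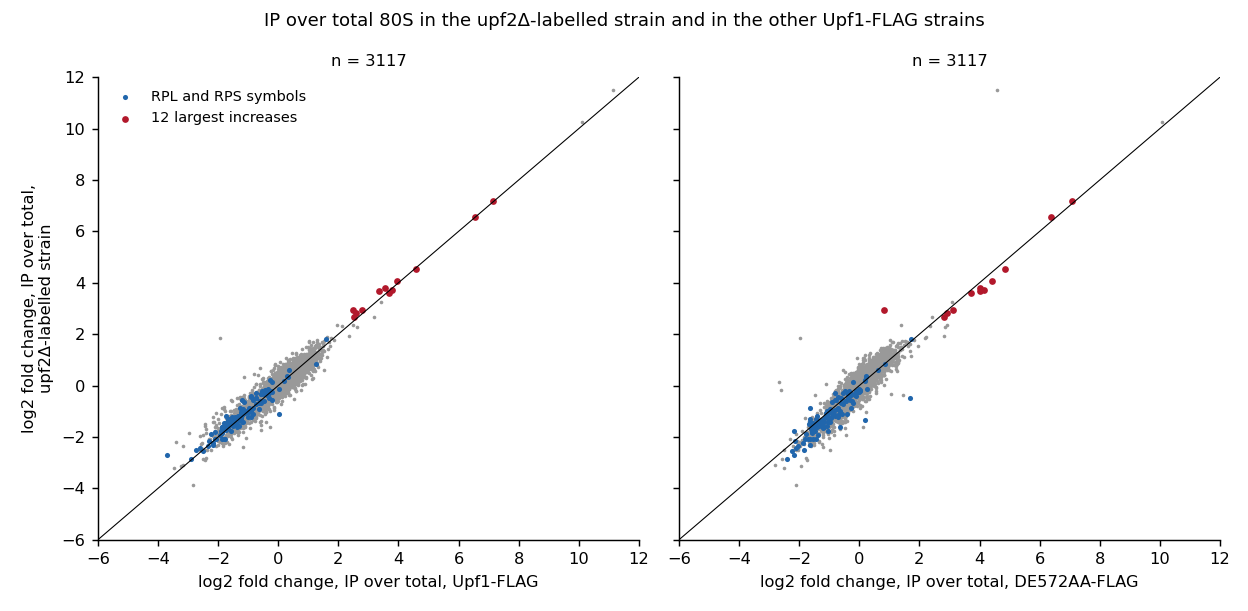
Log2 fold change of IP over total 80S in the upf2Δ-labelled strain (vertical) against that in Upf1-FLAG (left) and in DE572AA-FLAG (right), for 3117 entries with a mean of at least 30 CPM, with the line of equal values. Red points are the 12 genes with the largest increase and blue points entries with RPL or RPS symbols; most points lie along the line, and ENA1 is the red point farthest from it on the right.

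For the named genes the intervals differed in width. The log2 fold change of FET4 was 7.19 ± 0.17 in the upf2Δ-labelled strain and 7.15 ± 0.17 in Upf1-FLAG, a difference of 0.03 with a 95% interval of -0.38 to 0.44. That of STE20 was 4.53 ± 0.13 in the upf2Δ-labelled strain and 4.59 ± 0.13 in Upf1-FLAG (difference -0.06, interval -0.41 to 0.29). RNH203 differed by 0.0019, with the wide interval of -2.14 to 2.14, and RPS4B by -0.06 (-0.45 to 0.33). All 24 named coding genes passed the test in Upf1-FLAG as well, 12 of them higher and 12 lower. Among all 5050 entries 2263 passed there, and the 24 were chosen for large changes in the upf2Δ-labelled strain. The median log2 fold change of the 60S ribosomal protein genes was -1.24 in the upf2Δ-labelled strain and -1.27 in Upf1-FLAG, and that of the known NMD substrates was 0.23 in the upf2Δ-labelled strain and 0.15 in Upf1-FLAG.

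Against DE572AA-FLAG, 1 of 5050 entries (0.0198%) passed and was lower, and 298 (5.9%) had an unadjusted p under 0.05. It was YGR109W-B, a Ty3 entry on chromosome VII (707610 to 712254), with 6.57, 8.84 and 16.9 CPM in IP and 10.8, 18.9 and 15.9 CPM in total libraries of the upf2Δ-labelled strain. In DE572AA-FLAG it stood at 76.9, 87.5 and 115 CPM in IP and at 19.6, 23.2 and 16.9 CPM in total libraries, so that the difference was -2.76 with an interval of -3.74 to -1.77 (adjusted p = 0.0088, edgeR). It has other copies in the genome, its value is uncertain, and it was named after its values were seen, since it lies below 30 CPM in the 6 libraries. With the lysate as a block 10 entries passed, 2 higher and 8 lower, and without single libraries or lysates 0 to 3 did. None passed without total library 2 of the upf2Δ-labelled strain or without IP library 3 of DE572AA-FLAG.

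The 12 genes with the largest decrease were lower in the upf2Δ-labelled strain than in DE572AA-FLAG by fitted value in every case. They were chosen for low values in the upf2Δ-labelled strain, which favours that direction, and for none of them did the difference pass the test. SPO24 had log2 fold changes of -2.51 ± 0.32 in the upf2Δ-labelled strain and -0.99 ± 0.28 in DE572AA-FLAG (difference -1.52, interval -2.44 to -0.61, adjusted p = 0.46, edgeR). PMP1 had -2.90 ± 0.23 and TIM8 -3.12 ± 0.26 in the upf2Δ-labelled strain, against -1.75 ± 0.19 and -1.95 ± 0.21 in DE572AA-FLAG. The median of the 60S ribosomal protein genes was -1.24 in the upf2Δ-labelled strain and -1.01 in DE572AA-FLAG. Of these 81 genes, 16 had an unadjusted p under 0.05 for the difference (edgeR), against 5.9% of all 5050 entries. Of the 57 genes of the small ribosomal subunit, 5 had such a p-value. Their median was -1.14 in the upf2Δ-labelled strain and -1.03 in DE572AA-FLAG. For ENA1 the difference of 2.14 had an interval of -0.25 to 4.54.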

How the data were processed

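Footprint tables and RNA tables of the whole series were used. The authors deposited expected counts per transcript, which RSEM estimates and which need not be whole, and the FPKM values made from them, per the file headers; footprints are split by length class. The submitters' processing notes name cutadapt, Bowtie, RSEM and the build R64 (sacCer3); versions are not given in the sources used here. Each table lists 6952 entries, 343 of them unspliced; 5966 of 6656 loci matched the RefSeq table of R64, which gave symbols, spans and the lengths of genes without an intron. All 250 columns had a sample by name, and 0 were left over.

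Expected counts were rounded and fitted with edgeR 4.0.16 (R 4.3.3, filterByExpr with a minimum count of 10, TMM, robust quasi-likelihood test). The fits ran over 21 cycloheximide footprint libraries and over 12 RNA libraries, of the strains with C-terminal tags and of WT-C. Spread was estimated over all groups of a fit together. The P-values were adjusted by Benjamini-Hochberg over all entries tested. SE is the absolute log2 fold change over the square root of F. CPM carry no TMM factor, so fitted fold changes lie slightly below CPM ratios. Intervals and floors of 3 counts cover counting error or the spread between libraries only. DESeq2 1.42.0 was an alternative. The footprint tests were also run on counts simulated from the fitted means of the footprint fit.

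The description codes of an IP and a total library share a number for each lysate, which pairs them. Deviations from the group means correlated at r = 0.077, 0.058 and -0.029 within lysates and at -0.093 to 0.040 between lysates. The reported values come from the model without a block.

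The members and lists were chosen with earlier results of these data known. The named genes are those called with a mean of at least 30 CPM and the same side in all 3 lysates, 12 spliced coding entries and up to 3 unspliced entries at each end, and the 2 highest and 2 lowest called of each list, from which examples are given, all known NMD substrates, strain markers and the 3 shortest and 3 longest coding entries. No sequences are printed.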

Additional observations from a re-analysis of the deposited data

Results flagged for a closer look

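The difference of IP over total between the upf2Δ-labelled strain and DE572AA-FLAG passed the test of the difference itself for YGR109W-B, a Ty3 entry, at -2.76 on the log2 scale (adjusted p = 0.0088, edgeR). In the upf2Δ-labelled strain the IP and total libraries overlapped, whereas in DE572AA-FLAG all 3 IP libraries lay above the 3 total libraries. In Upf1-FLAG it stood at 0, 4.27 and 10.9 CPM in IP and at 21.6, 15.9 and 13.6 CPM in total libraries.

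CTF13, a kinetochore subunit and known NMD substrate, lay on opposite sides in all lysates of 2 strains. It had 34.7, 27.3 and 27.4 CPM in IP and 18.6, 26.5 and 25.1 CPM in total libraries of the upf2Δ-labelled strain. In Upf1-FLAG it had 10.9, 24.8 and 20.3 CPM in IP and 16.5, 25.2 and 25.4 CPM in total libraries. The difference of 0.45 on the log2 scale did not pass the test (95% interval -0.37 to 1.26, unadjusted p = 0.27, edgeR).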

How the results depend on the processing

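The count of entries that differ between IP and total kept within 1.5 times under every alternative run, 1590 to 2055 of them with a library or lysate left out, against 2271. The lysate block gave 2288 calls over all groups and 2272 over the 6 libraries alone. The count against Upf1-FLAG was 0, and 0 to 1 with libraries or lysates left out; the 1 came without IP library 2 of Upf1-FLAG. The count against DE572AA-FLAG, reported as 1, was 7 with DESeq2, 5 with spliced and unspliced entries summed per locus, 10 with the replicate block, 9 with only the groups compared and 0 to 3 with libraries or lysates left out. The RNA count of 1539 was 946 with only the groups compared and 1127 to 1669 with libraries left out, and 1378 with the replicate number as a block; same-numbered RNA libraries share only a number (r of deviations 0.073, -0.044 and -0.171). The cause of these shifts was not tested.

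The share of counts in IP minus that in total, -9.26 percentage points for ribosomal protein genes, was -13.0 from FPKM, -2.62 with the 37 to 43 nt IP class and -10.4 to -8.57 with a lysate left out. For entries under 600 nt it was -4.20, against -5.95 from FPKM, -1.27 with the longer class and -4.47 to -4.03 with a lysate left out. For entries of 2400 nt and over it was 4.60, against 2.54 from FPKM, 3.41 with the longer class and 4.22 to 5.30 with a lysate left out. With the longer class, 7 shares changed sign: glycolysis and fermentation from 2.65 to -6.60, plasma membrane transport from 1.59 to -0.999, amino acid synthesis from 1.02 to -0.438, mitochondrial ribosomal proteins from -0.0514 to 0.186, oxidative phosphorylation from -0.0391 to 0.545, histones from -0.131 to 0.0176, and frameshift and Ty entries from -0.00768 to 0.0399. The total libraries set against it are of 27 to 32 nt, so that footprint length and pull-down cannot be told apart there. FPKM divides by length, so that long genes count less.

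Over 127 named entries and all alternatives, 1945 values kept direction and call, 70 lost the call, 9 gained it and 0 reversed. A count of 3 was 3.15 to 5.45 CPM in IP libraries, which limits low entries. The edgeR p-values measure only the spread between lysates, estimated over all groups of a fit together, with 3 lysates in each.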
